A study of Mus musculus with 19 samples.

Results

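Genes that mark or regulate blood stem cells, namely Mecom, Hlf, Mllt3, Mycn, Tek, Slamf1 and Procr, were followed across sorted mouse myeloid progenitors with and without the DNA methyltransferase gene Dnmt3a. They were chosen by name, with earlier results of these data known. Each was measured by the probe sets annotated to it alone or to its older symbol, which gave 94 probe sets for 7 of the 15781 genes on the array. RNA was profiled on exon arrays in 19 samples from bone marrow of 6 kinds. They comprise Dnmt3a-/- common myeloid progenitors (CMP, 3 arrays), wild-type (WT) CMP (3 arrays), Dnmt3a-/- granulocyte-monocyte progenitors (GMP, 3 arrays), WT GMP (4 arrays), PR+/- Dnmt3a-/- GMP (4 arrays) and PR+/- GMP (2 arrays). The strain of the first 4 groups is C57Bl/6J, and for the PR+/- groups the labels name none. The series title, which asks whether PML-RARA needs Dnmt3a, is the basis for taking PR to mean this fusion of acute promyelocytic leukaemia. How Dnmt3a was deleted, what drives the fusion, the age of the mice and whether animals were pooled are not given in the sources used here.

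Haematopoietic stem cells sit above the CMP, from which the GMP descend, and the genes followed here are best known from the top of this hierarchy. Mecom, Hlf, Mllt3 and Mycn act in the nucleus and sustain stem cell self-renewal or survival, while Tek, Slamf1 and Procr encode surface receptors that are used to recognise or maintain stem cells. Dnmt3a places new methyl groups on cytosines that precede guanines (CpG sites), and its loss in mouse stem cells is known to favour self-renewal over differentiation.

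Every value below is the mean log2 intensity of a gene's probe sets on 1 array, so levels are compared within a gene and never between genes. The mean level of genes of the germline, which blood cells hardly use, gave a median of 3.59, taken here as the background level. Genes of other tissues gave a second, higher background level of 3.84. Dnmt3a itself was lower in every array labelled Dnmt3a-/-, at 6.42 ± 0.06 in Dnmt3a-/- CMP against 7.46 ± 0.21 in WT CMP (SD, n = 3 each), at 6.13 ± 0.08 (n = 3) in Dnmt3a-/- GMP against 7.44 ± 0.12 (n = 4) in WT GMP, and at 6.09 ± 0.20 (n = 4) in PR+/- Dnmt3a-/- GMP against 7.13 ± 0.09 (n = 2) in PR+/- GMP. The Fc receptor gene Fcgr3, which separates GMP from CMP in a sort, averaged 9.98 in Dnmt3a-/- GMP and 9.24 in WT GMP, against 6.45 in Dnmt3a-/- CMP and 7.10 in WT CMP. Among 5 genes of the sort gate, Cd34 was lower in Dnmt3a-/- CMP, at 9.27 to 10.02 against 10.25 to 10.35 in WT CMP. Kit was higher, at 10.05 to 10.09 in Dnmt3a-/- CMP against 9.73 to 9.90 in WT CMP. Fcgr3, Ly6a and Il7r overlapped between these groups, and none of the 5 was called there (limma, adjusted p under 0.05). Some arrays stood apart from their groups. A list of immediate early genes and heat shock genes averaged 8.85 in WT CMP replicate 1, 7.96 and 7.78 in WT GMP replicates 1 and 2, and 8.91 and 8.79 in PR+/- Dnmt3a-/- GMP replicates 1 and 2, against 5.92 to 7.54 in the other 14 arrays. Y-linked genes were at 3.25 or less in all 6 Dnmt3a-/- arrays, WT CMP replicate 3, WT GMP replicate 4 and PR+/- Dnmt3a-/- GMP replicate 2, and at 6.73 or more in the other 10.

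In CMP without Dnmt3a, 4 of the 7 genes rose and none fell. They were the nuclear regulators Mecom, Hlf and Mllt3 and the receptor gene Tek, by 1.83-fold to 2.28-fold. Of all genes on the array 0.919% rose and 0.361% fell in this comparison (limma, adjusted p under 0.05). The median change of the 7 genes was 0.87 on the log2 scale, where the median of all 15781 genes was -0.04.

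Mecom encodes a zinc finger transcription regulator that stem cells need for self-renewal. Its level was 4.95, 5.24 and 5.22 in the 3 Dnmt3a-/- CMP arrays, against 4.14, 3.95 and 3.97 in the 3 WT CMP arrays. All 3 Dnmt3a-/- arrays lay above all 3 WT arrays. The change was 1.12 ± 0.19 (SE), or 2.17-fold, with an adjusted p of 0.0121 by limma over all genes. The WT CMP mean of 4.02 lay close to background. Of the 17 Mecom probe sets 11 lay above background in WT CMP, against all 17 in Dnmt3a-/- CMP.

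Hlf encodes a PAR family bZIP transcription factor and is among the genes most closely tied to the stem cell state. Dnmt3a-/- CMP had 7.97, 8.49 and 7.97, against 7.16, 6.92 and 6.93 in WT CMP. The groups did not overlap, and the lowest Dnmt3a-/- array lay well above the highest WT array. The change was 1.14 ± 0.19, or 2.20-fold (limma adjusted p = 0.0123).

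Mllt3 encodes AF9, a reader of acylated histones that recruits elongation factors and maintains stem cells. Its levels were 7.60, 7.72 and 7.66 in Dnmt3a-/- CMP, against 7.10, 6.79 and 6.49 in WT CMP. The Dnmt3a-/- arrays lay close together and above the more widely spread WT arrays. The change was 0.87 ± 0.17, or 1.83-fold (limma adjusted p = 0.0246).

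Mycn, a MYC family transcription factor of cell growth, was not called in CMP. It stood at 5.73, 5.88 and 5.87 in Dnmt3a-/- CMP, against 6.03, 5.31 and 5.33 in WT CMP. The groups overlapped through WT CMP replicate 1, the array with high immediate early genes, and the change was 0.27 ± 0.32 (limma adjusted p = 0.785). Without it and WT GMP replicates 1 and 2 it was 0.51 and still not called (limma adjusted p = 0.0613), while the 4 genes that rose all kept their calls, at 1.18 for Mecom, 1.22 for Hlf, 1.03 for Mllt3 and 1.24 for Tek (limma adjusted p between 0.00347 and 0.0222).

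Among the receptors, Tek encodes TIE2, which binds angiopoietins and holds stem cells in quiescence. It measured 5.52, 5.46 and 5.33 in Dnmt3a-/- CMP, against 4.36, 4.04 and 4.35 in WT CMP. No arrays overlapped, and the change of 1.19 ± 0.21, or 2.28-fold (limma adjusted p = 0.0177), was close in size to those of Mecom and Hlf.

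Slamf1 encodes CD150, the SLAM receptor by which stem cells are sorted. It had 5.31, 5.27 and 5.85 in Dnmt3a-/- CMP, against 4.69, 4.55 and 4.84 in WT CMP. All Dnmt3a-/- arrays were higher, yet the change of 0.79 ± 0.26 did not pass the threshold over all genes (limma adjusted p = 0.179).

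Procr encodes the endothelial protein C receptor, EPCR, another marker of stem cells. It read 3.97, 3.81 and 4.26 in Dnmt3a-/- CMP, against 5.22, 3.98 and 4.51 in WT CMP. The groups overlapped, and its change of -0.56 ± 0.25 was not called (limma adjusted p = 0.340). Arrays of both genotypes did not overlap for 5 of the 7 genes, all higher without Dnmt3a, where 10.1% of all genes showed this.

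**Figure D1:**
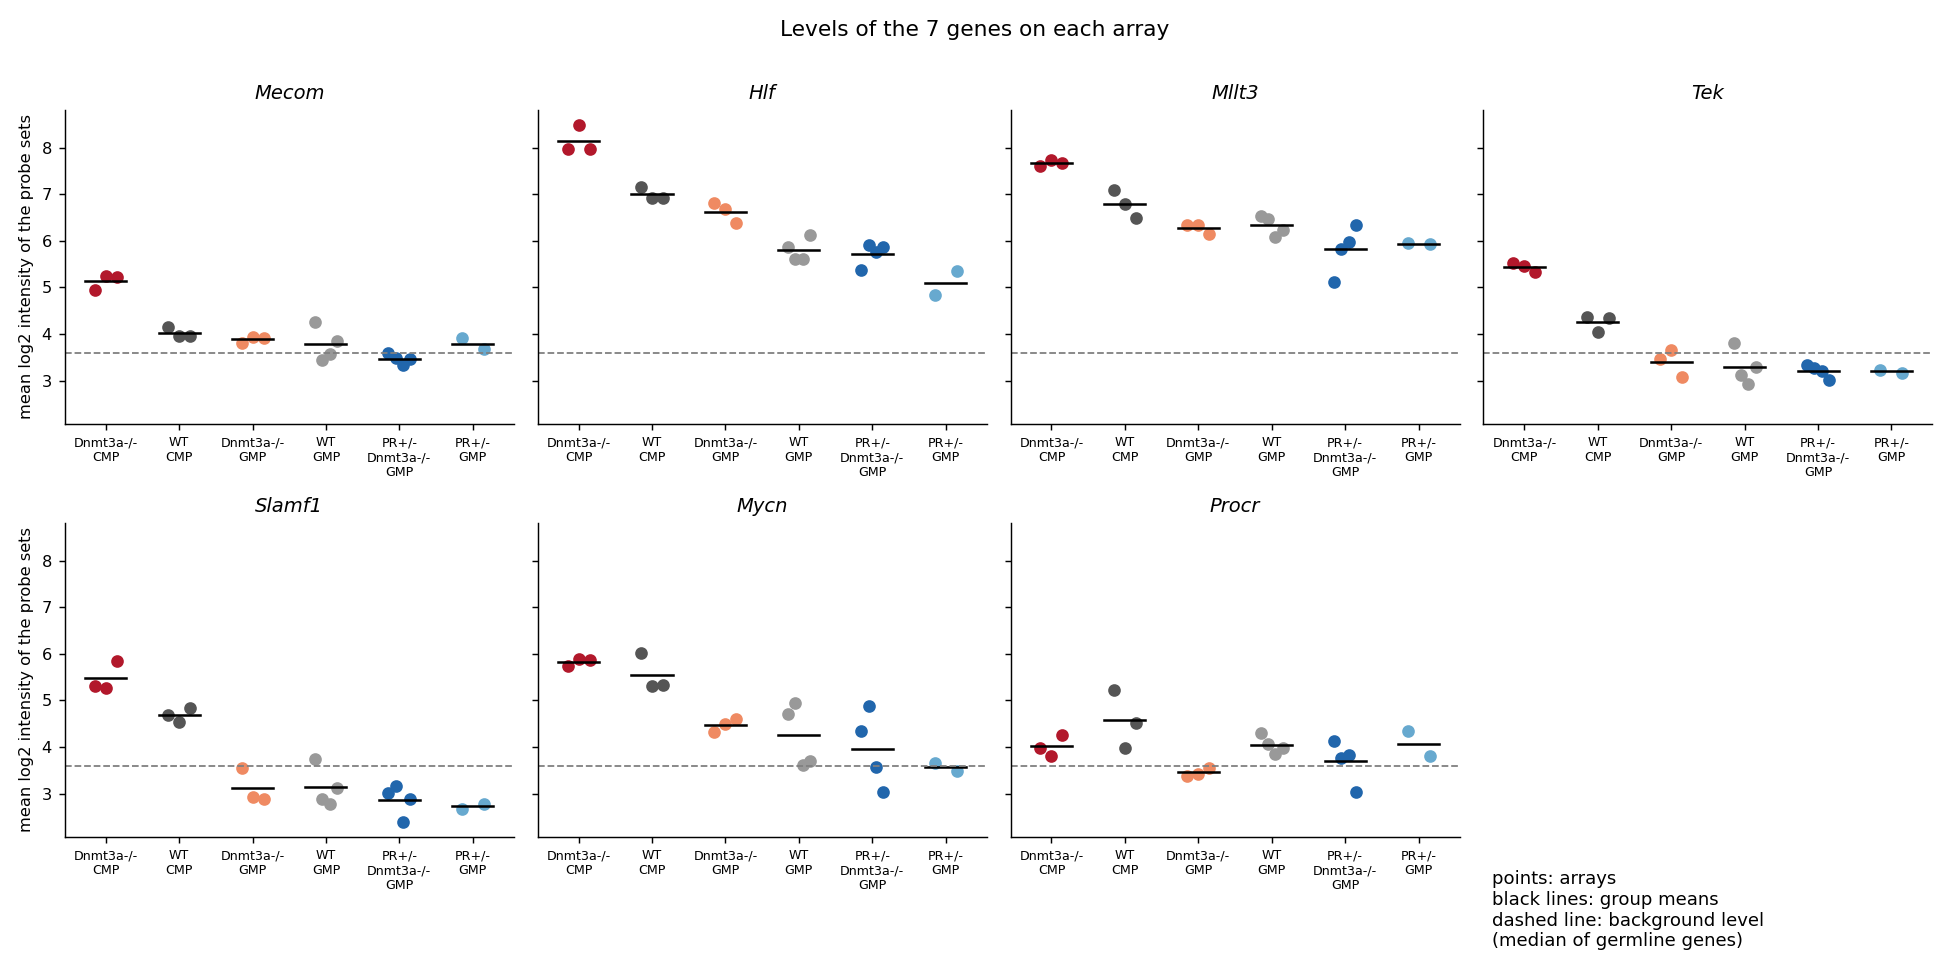
Mean log2 intensity of each gene's probe sets (y axis) on each of the 19 arrays (points), by group (x axis), with group means as black lines and the background level of 3.59 as a dashed line. Mecom, Hlf, Mllt3, Tek and Slamf1 were highest in the 3 Dnmt3a-/- CMP arrays, while Procr was not.

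Few arrays stand behind these calls, and Y-linked genes were low in every Dnmt3a-/- CMP array but in only 1 of 3 WT CMP arrays. The numbers in the array titles of the Dnmt3a-/- CMP and GMP form a block apart from those of the WT arrays. Within the WT arrays, those with high immediate early genes carry the lowest title numbers. No label says what these numbers mean. If they follow array runs, the effect of Dnmt3a loss and a difference between runs cannot be told apart in both cell types. In fits that left out 1 of the 6 CMP arrays, Mecom lost its call without Dnmt3a-/- replicate 2 or 3 (limma adjusted p = 0.0527 and 0.0650), and Hlf without WT replicate 2 or 3 (0.0511 and 0.0513). For Tek it went when WT replicate 2, or whichever array of the Dnmt3a-/- group, was left out (adjusted p of 0.0621 to 0.0768), and for Mllt3 when any array but WT replicate 1 was (0.0686 to 0.108). The changes themselves stayed between 1.06 and 1.21 for Mecom, 0.97 and 1.23 for Hlf, 0.72 and 1.03 for Mllt3, and 1.08 and 1.24 for Tek. In a fit with Y-linked level as covariate, Mllt3 alone of the 4 was called (1.10; limma adjusted p = 0.0359), while Mecom had 1.11, Hlf 1.01 and Tek 1.12 (limma adjusted p between 0.0870 and 0.123). With the median of the probe sets Hlf alone kept its call (adjusted p of 0.0720 for Mecom, 0.420 for Mllt3 and 0.0767 for Tek), and Mllt3 also lost it with the brighter probe sets, with only these groups and with all 19 arrays in 1 fit (0.0785 to 0.185).

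Markers of other cells moved beside these genes. The mean level of 11 megakaryocyte genes was 7.51 to 7.93 in Dnmt3a-/- CMP, against 6.08 to 6.27 in WT CMP, and 6 of the 11 rose and none fell. All 11 lay above background in Dnmt3a-/- CMP, and 1, the platelet receptor gene Clec1b, lay below it in WT CMP. The mean level of 7 dendritic cell genes was 8.67 to 9.17 in Dnmt3a-/- CMP, against 6.75 to 7.60 in WT CMP, and 4 rose. Of 7 neutrophil genes 2 rose, with a mean level of 10.4 to 11.8 in Dnmt3a-/- CMP, against 9.51 to 9.56 in WT CMP, and of 6 monocyte genes 3 fell, at 7.55 to 8.16 in Dnmt3a-/- CMP, against 8.62 to 8.97 in WT CMP. Endothelial cells also express Tek and Procr. The 9 endothelial markers had a mean level of 4.96 to 5.17 in Dnmt3a-/- CMP, against 5.04 to 5.13 in WT CMP. None rose, 1, Pecam1, fell, and Kdr lay below background in every group. In such bulk samples more cells of a type and more RNA per cell cannot be told apart, and the part of these cell types in the rise of the 4 genes was not tested.

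The DNA around the start sites of the 4 genes that rose is shown because CpG sites are what Dnmt3a acts on. The sequences are RefSeq's, of build GRCm38.p6, from 250 bases before to 50 bases after the start, 5′ to 3′ on the strand of the gene, with each CpG in capitals. Mecom has 2 listed starts, an upstream one at chr3:30509710-30510009 and a downstream one at chr3:30013155-30013454, both on the minus strand.
Mecom upstream: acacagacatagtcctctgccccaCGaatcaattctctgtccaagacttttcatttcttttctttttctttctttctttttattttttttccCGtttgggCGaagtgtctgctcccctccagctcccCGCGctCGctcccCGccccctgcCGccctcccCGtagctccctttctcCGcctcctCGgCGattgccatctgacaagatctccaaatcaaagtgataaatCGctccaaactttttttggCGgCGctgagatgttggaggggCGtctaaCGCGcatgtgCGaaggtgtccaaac
Mecom downstream: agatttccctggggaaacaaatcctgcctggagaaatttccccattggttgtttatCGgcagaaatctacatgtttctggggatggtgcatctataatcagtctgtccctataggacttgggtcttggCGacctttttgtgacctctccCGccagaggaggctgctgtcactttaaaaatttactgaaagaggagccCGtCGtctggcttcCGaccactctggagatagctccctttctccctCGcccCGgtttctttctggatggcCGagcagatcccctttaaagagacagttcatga
Hlf: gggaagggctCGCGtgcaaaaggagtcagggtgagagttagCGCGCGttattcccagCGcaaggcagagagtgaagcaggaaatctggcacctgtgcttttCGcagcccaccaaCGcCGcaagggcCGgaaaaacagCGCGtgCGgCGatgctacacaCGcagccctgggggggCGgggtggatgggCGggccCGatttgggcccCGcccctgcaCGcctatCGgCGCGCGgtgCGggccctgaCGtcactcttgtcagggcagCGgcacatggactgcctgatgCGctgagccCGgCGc
Mllt3: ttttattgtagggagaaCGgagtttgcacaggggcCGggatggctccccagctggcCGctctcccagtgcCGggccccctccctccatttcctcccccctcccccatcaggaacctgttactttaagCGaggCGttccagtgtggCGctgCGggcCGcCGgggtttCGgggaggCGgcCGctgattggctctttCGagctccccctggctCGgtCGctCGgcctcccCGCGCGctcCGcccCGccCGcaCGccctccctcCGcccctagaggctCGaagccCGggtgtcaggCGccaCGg
Tek: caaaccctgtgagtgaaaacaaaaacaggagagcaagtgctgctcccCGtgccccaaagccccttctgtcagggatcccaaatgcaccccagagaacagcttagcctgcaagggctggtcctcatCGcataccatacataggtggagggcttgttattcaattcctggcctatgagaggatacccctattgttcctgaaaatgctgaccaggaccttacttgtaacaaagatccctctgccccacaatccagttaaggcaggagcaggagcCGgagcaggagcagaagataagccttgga

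The window of Hlf lies at chr11:90390868-90391167 (minus strand), that of the upstream Mllt3 start at chr4:88033358-88033657 (minus strand) and that of Tek at chr4:94739039-94739338 (plus strand). The genes that rose differed widely in CpG content. Hlf held 30 CpG sites and the upstream Mllt3 start 29, the upstream Mecom start 19 and the downstream one 9, while Tek held 3, where the median of 32851 promoters of this length was 7. A second, downstream Mllt3 start, not shown, held 4. The genes that were not called held 4 in Slamf1, 14 in Mycn and 13 in Procr. Both strands were searched for the GATA motifs AGATAA or else TGATAA, the E-box CACGTG, the RUNX motif TGTGGT, the ETS motif CCGGAA and the cyclic AMP response element TGACGTCA. The GATA motifs differ in their first letter alone, and no motif contains another. The window of Tek held AGATAA, found in 11.2% of all promoters, and the upstream Mecom window and that of Slamf1 held TGATAA, found in 9.05%. The window of Hlf held CCGGAA, found in 14.9%, and TGACGTCA, found in 1.79%. Methylation was not measured in these samples, and a match to letters is no evidence of binding.

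In GMP, Hlf was the 1 gene of the 7 that rose without Dnmt3a, and none fell. Of all genes 0.9% rose and 0.431% fell (limma, adjusted p under 0.05). Hlf was at 6.81, 6.67 and 6.39 in Dnmt3a-/- GMP, against 5.86, 5.61, 5.60 and 6.13 in WT GMP. The groups did not overlap, and the change was 0.82 ± 0.18, or 1.77-fold (limma adjusted p = 0.0402). The call was lost without WT replicate 1, 2 or 3 or Dnmt3a-/- replicate 1 or 2 (limma adjusted p between 0.0698 and 0.194), without the 2 WT GMP arrays and the WT CMP array of high immediate early genes (0.76; adjusted p = 0.120) and with the Y-linked covariate (0.68; adjusted p = 0.234). It was also lost with the median of its probe sets, with the brighter ones and with only these groups in the fit (adjusted p between 0.103 and 0.120). Beside it, 4 of 7 dendritic cell genes rose, with a mean level of 6.78 to 6.98 in Dnmt3a-/- GMP, against 4.84 to 5.63 in WT GMP, and 2 of 11 megakaryocyte genes, at 5.78 to 6.36 in Dnmt3a-/- GMP, against 4.81 to 5.48 in WT GMP. Of 7 neutrophil genes 3 rose, at 10.27 to 11.48 in Dnmt3a-/- GMP, against 9.22 to 9.86 in WT GMP, and of 6 monocyte genes 3 fell, at 7.94 to 8.23 in Dnmt3a-/- GMP, against 8.78 to 8.91 in WT GMP. The part of these cell types in the rise of Hlf was not tested.

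Mecom had 3.81, 3.93 and 3.91 in Dnmt3a-/- GMP, against 4.26, 3.45, 3.56 and 3.85 in WT GMP. Mllt3 had 6.35, 6.34 and 6.16 in Dnmt3a-/- GMP, against 6.54, 6.48, 6.08 and 6.24 in WT GMP. In both the Dnmt3a-/- arrays lay inside the range of the WT arrays, with changes of 0.11 ± 0.17 for Mecom and -0.05 ± 0.16 for Mllt3 (limma adjusted p = 0.763 and 0.887). The Mecom means, 3.88 in Dnmt3a-/- GMP and 3.78 in WT GMP, lay close to background, which limits what its change can show. Of its 17 probe sets 9 lay above background in Dnmt3a-/- GMP and 10 in WT GMP. Tek was at 3.47, 3.65 and 3.07 in Dnmt3a-/- GMP, against 3.81, 3.13, 2.93 and 3.29 in WT GMP. Slamf1 was at 3.55, 2.93 and 2.89 in Dnmt3a-/- GMP, against 3.75, 2.88, 2.78 and 3.13 in WT GMP. The means of both receptors lay under the background level in both genotypes, so no fold change is given for them. Of the 28 Tek probe sets 12 lay above it in Dnmt3a-/- GMP and 10 in WT GMP, and of the 8 Slamf1 probe sets 2 in each.

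Mycn was at 4.33, 4.50 and 4.60 in Dnmt3a-/- GMP, against 4.71, 4.95, 3.62 and 3.71 in WT GMP. The WT arrays were split, with replicates 1 and 2, which had high immediate early genes, above the Dnmt3a-/- arrays and replicates 3 and 4 below them. The change was 0.23 ± 0.30 over all arrays (limma adjusted p = 0.693) and 0.81 without the arrays of high immediate early genes, where it passed the threshold (limma adjusted p = 0.0200). Procr was at 3.38, 3.43 and 3.56 in Dnmt3a-/- GMP, against 4.30, 4.07, 3.85 and 3.99 in WT GMP. All Dnmt3a-/- arrays were lower and just under background, and the difference was not called (limma adjusted p = 0.202). The WT mean lay 0.46 above the background level on the log2 scale, and 0.21 above the second one. Of the 7 genes, Hlf was thus higher and Procr lower with no overlap between the genotypes in GMP, where 7.88% of all genes were higher and 8.73% lower in this way. For Procr this came from its 7 dimmer probe sets, which averaged under background in both genotypes. Its brightest probe set overlapped, at 7.45 to 8.44 in Dnmt3a-/- GMP and 7.78 to 8.60 in WT GMP.

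Averaged over CMP and GMP, Hlf (0.98 ± 0.13), Mecom (0.61 ± 0.13) and Tek were called higher without Dnmt3a (limma adjusted p = 0.00122, 0.0160 and 0.0239). No size is given for Tek, whose GMP means lay under background in both genotypes. This is 3 of the 7 genes, where 3.54% of all genes were higher and 2.21% lower. Mllt3 (0.41 ± 0.12; adjusted p = 0.0537) and Procr (adjusted p = 0.0622), which had its Dnmt3a-/- GMP mean under background, lay just outside the threshold. The call of Tek was lost without WT CMP replicate 2, Dnmt3a-/- CMP replicate 1 or 2 or Dnmt3a-/- GMP replicate 1 or 2 (limma adjusted p between 0.0547 and 0.0667). Mllt3 was called without WT CMP replicate 1 (0.49; adjusted p = 0.0229) or WT GMP replicate 2 (0.44; adjusted p = 0.0488), and Procr without WT CMP replicate 2 (adjusted p = 0.0192). With the Y-linked covariate all 3 calls were lost (limma adjusted p = 0.188 for Mecom, 0.0868 for Hlf and 0.257 for Tek), and with the median of its probe sets that of Mecom was (0.0916). Without the arrays of high immediate early genes Mycn (0.66; adjusted p = 0.00388) and Mllt3 (0.58; adjusted p = 0.00868) were called too.

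Whether the effect of Dnmt3a loss differed between both cell types was tested directly, as the Dnmt3a-/- change in GMP minus that in CMP. It was -1.01 ± 0.25 for Mecom and -0.92 ± 0.23 for Mllt3. The GMP means of Mecom lay close to background, and the part of that floor in its value was not tested. No size is given for Tek and Slamf1, whose GMP means lay under background in both genotypes, or for Procr, whose Dnmt3a-/- GMP mean did. For Hlf it was -0.32 ± 0.26, and for Mycn it was -0.04 ± 0.43. None of the 7 passed over all genes, and 0 of the 15781 genes did (0%; limma), although 1083 genes and 4 of the 7, Mecom, Mllt3, Tek and Slamf1, had an unadjusted p under 0.05. The adjusted p was 0.359 for Mecom and Mllt3, 0.417 for Tek and 0.693 for Slamf1. Over the whole array 48 genes passed with array weights, 23 without WT CMP replicate 1, 10 without the arrays of high immediate early genes, 2 with quantile normalization and 1 each without WT CMP replicate 3 or WT GMP replicate 2, and 0 of the 7 under any of these settings.

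**Figure D2:**
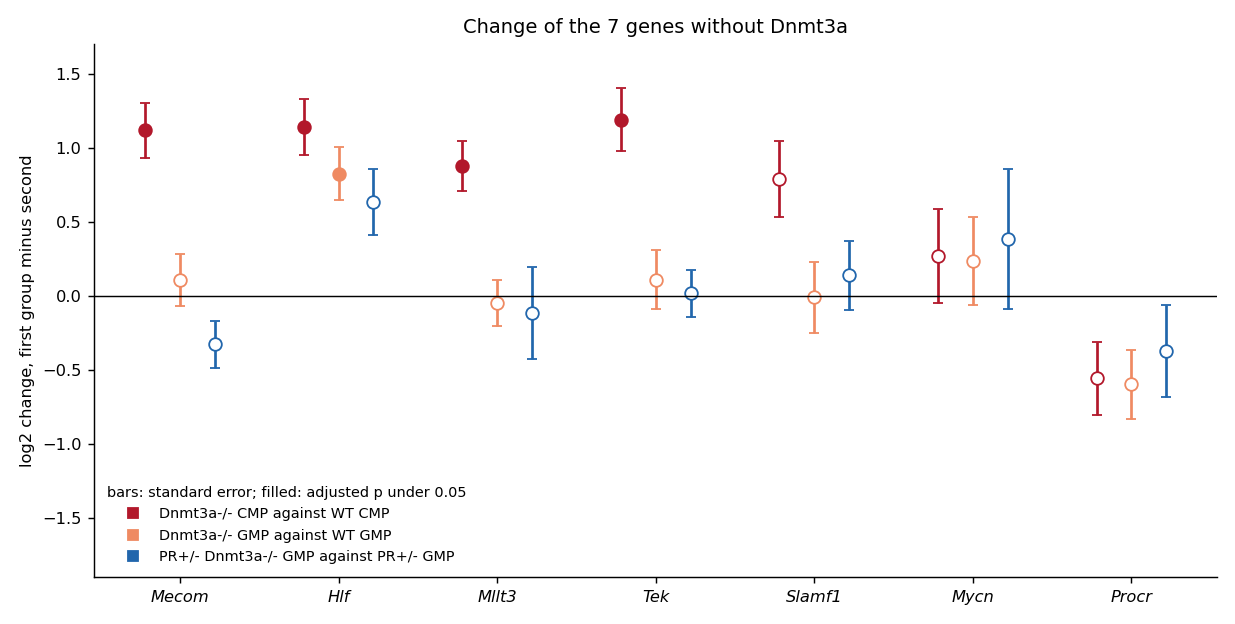
Log2 change with its standard error (y axis) of each gene (x axis) in Dnmt3a-/- CMP against WT CMP, Dnmt3a-/- GMP against WT GMP and PR+/- Dnmt3a-/- GMP against PR+/- GMP, with filled points for adjusted p under 0.05. The filled points are Mecom (1.12), Hlf (1.14), Mllt3 (0.87) and Tek (1.19) in CMP and Hlf (0.82) in GMP, while the GMP points of Tek and Slamf1 rest on levels under background in both groups, and those of Procr in GMP and of Mecom and Mycn in PR+/- arrays on such a level in 1 group.

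The genes were mostly lower in GMP than in CMP. In Dnmt3a-/- mice 6 of the 7 were lower in GMP and none higher, where 4.58% of all genes were lower and 5.5% higher (limma, adjusted p under 0.05). In WT mice 4 of the 7 were lower and none higher, where 2.43% of all genes were lower and 1.87% higher. The median change of the 7 was -1.38 in Dnmt3a-/- and -0.96 in WT mice, against -0.01 and 0.04 over all genes. With genes whose GMP mean lay under background at their bound, it was -1.38 and -0.66. The difference between these GMP against CMP steps is the same contrast as that tested above for the effect of Dnmt3a loss, in which none of the 7 passed. Beside the 7, all 7 dendritic cell genes were lower in GMP in both genotypes, as were 9 of 11 megakaryocyte genes in Dnmt3a-/- and 5 of 11 in WT mice. Of 6 erythroid genes 4 were lower and 1 higher in Dnmt3a-/- mice and 3 were lower in WT mice, with medians of -2.15 and -2.14. The part of these cell types was not tested.

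In Dnmt3a-/- mice Mecom changed in GMP by -1.25 ± 0.19, Hlf by -1.52 ± 0.19, Mllt3 by -1.38 ± 0.17 and Mycn by -1.35 ± 0.32 (limma adjusted p = 0.000741, 0.000234, 0.000201 and 0.0154). The GMP mean of Mecom, 3.88, lay close to background. Tek and Slamf1 were at least 3.59-fold and 3.70-fold lower, bounds set by the background level that their GMP means had reached (limma adjusted p = 9.27e-05 and 0.000105). These bounds are 1.85 and 1.89 on the log2 scale, and 1.60 and 1.64 against the second background level. For these 6 genes every Dnmt3a-/- GMP array lay below every Dnmt3a-/- CMP array. The GMP mean of Procr lay under background, and its CMP mean lay 0.42 above that level on the log2 scale, or 0.17 above the second one. Their difference was not called (limma adjusted p = 0.213) except with array weights (0.0228) and with only these groups in the fit (0.0464). The Procr arrays did not overlap either. That makes 7 of 7 genes without overlap, where 15.1% of all genes were lower with no overlap. For Procr the lack of overlap came from its 7 dimmer probe sets, which averaged under background in both groups. Its brightest probe set overlapped, at 7.45 to 8.44 in Dnmt3a-/- GMP and 7.92 to 8.04 in Dnmt3a-/- CMP. The call of Mycn was lost without Dnmt3a-/- CMP replicate 2 or 3 or GMP replicate 1 (limma adjusted p = 0.0539, 0.0554 and 0.0572), and no other call was lost by leaving out 1 array.

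In WT mice Hlf changed in GMP by -1.20 ± 0.18 and Mycn by -1.31 ± 0.30 (limma adjusted p = 0.00202 and 0.0241). Slamf1 was at least 2.14-fold lower and Tek at least 1.58-fold lower (limma adjusted p = 0.00261 and 0.0148). These bounds are 1.10 and 0.66 on the log2 scale, and 0.85 and 0.41 against the second background level of 3.84. All WT GMP arrays lay below all WT CMP arrays for these 4 genes, where 6.65% of all genes showed this. Mllt3 (-0.46 ± 0.16), Procr (-0.52 ± 0.23) and Mecom (-0.24 ± 0.17) overlapped between the cell types and were not called (limma adjusted p = 0.144, 0.283 and 0.558). The call of Tek was lost without WT CMP replicate 1 or 3 (limma adjusted p = 0.0700 and 0.0513) and that of Mycn without WT CMP replicate 1 or WT GMP replicate 3 or 4 (0.129, 0.0609 and 0.0649). With only these groups in the fit Tek and Mycn were not called (0.0691 and 0.130), with all 19 arrays in 1 fit Mycn was not (0.0549), and with the brighter probe sets Slamf1 was not (0.0670). Without the arrays of high immediate early genes Mycn was called at -1.66 (adjusted p = 0.000589), and Hlf was not, at -1.06 (adjusted p = 0.0526).

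In GMP that carry PR+/-, none of the 7 genes differed between PR+/- Dnmt3a-/- and PR+/-, and no gene on the array did (0%; limma over 6 arrays, with 1256 genes at an unadjusted p under 0.05). With array weights 1 gene passed and with all 19 arrays in 1 fit 21 did, 0 of the 7 among them. Hlf was at 5.38, 5.90, 5.76 and 5.86 in PR+/- Dnmt3a-/- GMP, against 4.84 and 5.34 in PR+/- GMP. All 4 arrays without Dnmt3a lay above both arrays with it, in the direction seen in the other Dnmt3a-/- groups. The change was 0.63 ± 0.22, with an unadjusted p of 0.0224 and an adjusted p of 0.620, and 1 other gene of the 7 lacked overlap, Mecom, which was lower. Of all genes 8.28% were higher and 12.3% lower with no overlap between these groups.

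Mecom was at 3.60, 3.48, 3.33 and 3.46 in PR+/- Dnmt3a-/- GMP, against 3.90 and 3.69 in PR+/- GMP. The 4 arrays lay close to or below the background level, and the difference was not called (limma adjusted p = 0.634). The PR+/- mean lay 0.20 above the background level on the log2 scale. Both group means, 3.47 and 3.80, lay under the second background level, which allows no such value. Mllt3 was at 5.12, 5.83, 5.98 and 6.35 in PR+/- Dnmt3a-/- GMP, against 5.94 and 5.93 in PR+/- GMP, so the pair of PR+/- arrays lay inside the wide range of the other 4 (-0.12 ± 0.31; limma adjusted p = 0.926). Tek had 3.34, 3.28, 3.21 and 3.02 in PR+/- Dnmt3a-/- GMP, against 3.23 and 3.17 in PR+/- GMP. Slamf1 had 3.0, 3.17, 2.39 and 2.90 in PR+/- Dnmt3a-/- GMP, against 2.67 and 2.79 in PR+/- GMP. The mean level of both receptors over their probe sets lay under the background level in each of these arrays, while single probe sets lay above it.

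Mycn was at 4.33, 4.88, 3.57 and 3.03 in PR+/- Dnmt3a-/- GMP, against 3.66 and 3.48 in PR+/- GMP. The 2 high values were those of replicates 1 and 2, which had high immediate early genes. The PR+/- mean lay under background. Over all arrays the PR+/- Dnmt3a-/- GMP mean lay 0.36 above the background level on the log2 scale, and 0.11 above the second one. The groups overlapped, and their difference was not called (limma adjusted p = 0.826). Without those 2 arrays every remaining one but the first of PR+/- lay under background. Procr was at 4.14, 3.77, 3.84 and 3.04 in PR+/- Dnmt3a-/- GMP, against 4.33 and 3.81 in PR+/- GMP, which overlapped (-0.37 ± 0.31; limma adjusted p = 0.738).

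PR+/- GMP were also set against WT GMP, where 0 of the 7 genes and 3.07% of all genes were called in either direction (limma over 13 GMP arrays). Both PR+/- arrays lay below all 4 WT arrays for Hlf, whose change was -0.71 ± 0.22 (limma adjusted p = 0.0991), and for Mllt3 (-0.40 ± 0.26; adjusted p = 0.485), where 12.3% of all genes were lower without overlap. With array weights Hlf passed, at -0.76 (adjusted p = 0.0389). Array names of the PR+/- groups follow another style than those of WT, and no label says why. If the style follows array runs, the effect of PR+/- and a difference between runs cannot be told apart.

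Across all 6 groups the order of levels was much alike for Mecom, Hlf and Tek. Their 3 highest groups were Dnmt3a-/- CMP, WT CMP and Dnmt3a-/- GMP, in that order, and neither of the first 2 overlapped with the next group in any of the 3 genes. Further down the Mecom order, WT GMP did overlap with WT CMP, through replicate 1 at 4.26 against 3.95 to 4.14 in WT CMP. Hlf also separated Dnmt3a-/- GMP (6.63 ± 0.22, SD, n = 3) from WT GMP (5.80 ± 0.25, n = 4), and PR+/- Dnmt3a-/- GMP (5.72 ± 0.24, n = 4) from PR+/- GMP (5.09 ± 0.36, n = 2). For Mecom and Tek the GMP groups overlapped with their neighbours in the order. Slamf1 had the same first 2 groups, followed by 4 GMP groups that overlapped with their neighbours around the background. Mllt3 in WT CMP (6.79 ± 0.31, n = 3) overlapped with WT GMP (6.33 ± 0.21, n = 4), and Mycn in Dnmt3a-/- CMP (5.83 ± 0.09, n = 3) with WT CMP (5.56 ± 0.41, n = 3). Procr had its highest mean in WT CMP (4.57 ± 0.62, n = 3) and its lowest in Dnmt3a-/- GMP (3.45 ± 0.09, n = 3), and every group overlapped with the next.

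Over the 19 arrays, the levels of Mecom, Hlf, Mllt3, Tek, Slamf1 and Mycn ran together, with Pearson r between 0.711 for Mecom with Mycn and 0.948 for Tek with Slamf1. Procr stood apart, with r between 0.108 with Hlf and 0.517 with Mycn. These values describe arrays that share groups, and they are given without a test. Among 12131 genes above background, the genes most like each member were Tek (0.927), Ciita and Shtn1 for Mecom, Clec9a (0.956), Ifi205 and Gcnt2 for Hlf, and Gp9 (0.907), Arhgef12 and Gucy1a1 for Mllt3. For Tek they were Dst (0.954), Robo3 and Slamf1, for Slamf1 Shank3 (0.956), Rnf180 and Sgms1, for Mycn Zmiz1 (0.946), Rnf122 and Aqp1, and for Procr Rhoq (0.829), Btbd16 and Uros. By Spearman correlation Clec9a and Zmiz1 kept the first place, and Dst fell to place 358 of the genes searched for Tek. Shank3 fell to place 341 for Slamf1 and Gp9 to 121 for Mllt3. For Mecom, Mllt3, Slamf1 and Procr none of the 3 genes named stayed among the first 3.

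In Dnmt3a-/- CMP against WT CMP, all 17 probe sets of Mecom, 13 of Hlf, 13 of Mllt3, 28 of Tek and 8 of Slamf1 had changes above 0. Of the 94 probe sets 44 (46.8%) were higher with no overlap between the arrays and none was lower, where 8.76% of all probe sets were higher and 9.02% lower. The gene values above are means of these probe sets, and those of a gene are not independent. Counts of probe sets, here and below, are therefore a description alone. The changes ranged from 0.38 to 2.26 in Mecom, 0.50 to 2.12 in Hlf, 0.10 to 1.58 in Mllt3 and 0.07 to 2.80 in Tek. Without overlap were 7 of 17 in Mecom, 10 of 13 in Hlf, 4 of 13 in Mllt3 and 15 of 28 in Tek. Of the Tek probe sets 19 lay above background in WT CMP, and the brightest there changed by 0.07. The brightest of Mecom overlapped, at 6.75 to 7.42 in Dnmt3a-/- CMP and 5.37 to 8.93 in WT CMP, while those of Hlf and Mllt3 did not overlap. Of the 17 Mecom probe sets 15 carry the older symbol Evi1 and 2 the symbol Mds1, the upstream exons of the longer protein, and their mean changes were 1.15 and 0.84.

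In Dnmt3a-/- GMP against Dnmt3a-/- CMP, 67 of the 94 probe sets (71.3%) were lower without overlap, where 11.8% of all probe sets were. All 28 probe sets of Tek and all 8 of Slamf1 had values below 0, with medians of -2.11 and -2.39. Of Mecom 15 of 17 did, and of Mycn 6 of 7, with 2 at -3.64 and -3.73 and the other 5 between -1.10 and 0.04. In WT GMP against WT CMP it was 27 of 94 (28.7%), where 4.21% of all were. In Dnmt3a-/- GMP against WT GMP 11 of 94 (11.7%) were higher without overlap, where 5.01% of all were, and 6 of the 11 belonged to Hlf. In that comparison 4 of the 94 were lower without overlap, where 5.62% of all were.

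**Figure D3:**
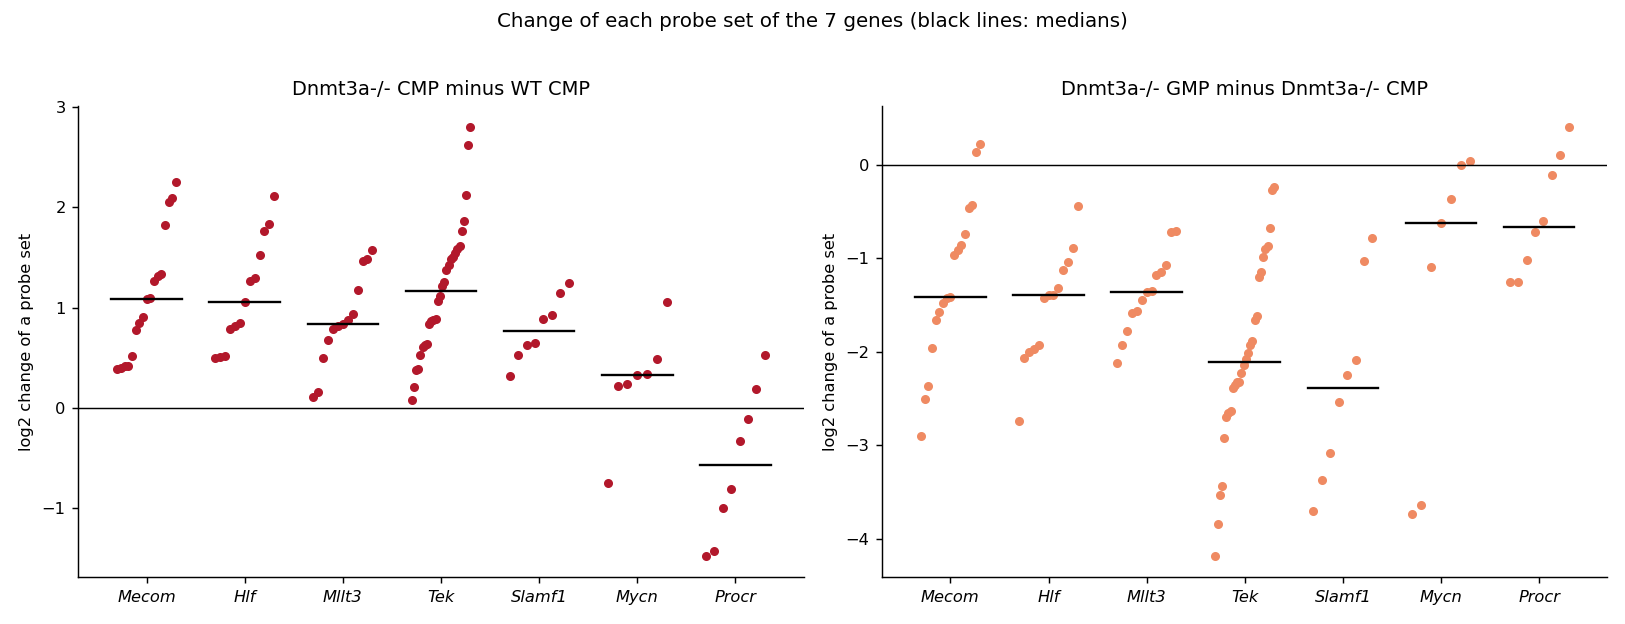
Log2 change of each of the 94 probe sets (points, y axis) by gene (x axis), with medians as black lines, in Dnmt3a-/- CMP against WT CMP (left) and Dnmt3a-/- GMP against Dnmt3a-/- CMP (right). On the left all points of Mecom, Hlf, Mllt3, Tek and Slamf1 lie above 0, and on the right 2 Mycn probe sets lie far below the other 5.

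Mycn and Procr rested on few bright probe sets, singled out after their values were seen. The 2 Mycn probe sets brightest in WT CMP averaged 8.82, 8.97 and 9.10 over the 3 Dnmt3a-/- CMP arrays, in order of level, against 8.22, 8.23 and 8.51 in WT CMP. The other 5 averaged 4.57 ± 0.08 in Dnmt3a-/- CMP and 4.45 ± 0.61 in WT CMP (SD, n = 3 each). In GMP the pair averaged 5.28 ± 0.32 in Dnmt3a-/- (n = 3) and 4.39 ± 1.22 in WT (n = 4), and the other 5 averaged 4.16 ± 0.32 in Dnmt3a-/- and 4.19 ± 0.63 in WT. The pair was chosen as the brightest in WT CMP, so its lower level in GMP is given as a description alone. With the median of its probe sets in place of their mean, the lower Mycn level in GMP was not called in Dnmt3a-/- (-0.29; limma adjusted p = 0.764) or in WT mice (-0.82; adjusted p = 0.262).

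Procr had 1 bright probe set, at 7.98 ± 0.06 in Dnmt3a-/- CMP, 8.10 ± 0.49 in WT CMP, 7.87 ± 0.52 in Dnmt3a-/- GMP (SD, n = 3 each) and 8.18 ± 0.35 in WT GMP (n = 4). The other 7 averaged 3.44 ± 0.25 in Dnmt3a-/- CMP, 4.07 ± 0.78 in WT CMP, 2.82 ± 0.03 in Dnmt3a-/- GMP (n = 3 each) and 3.46 ± 0.24 in WT GMP (n = 4). All but the WT CMP mean lay below the background level, while the bright one lay far above it in all 4 groups.

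**Figure D4:**
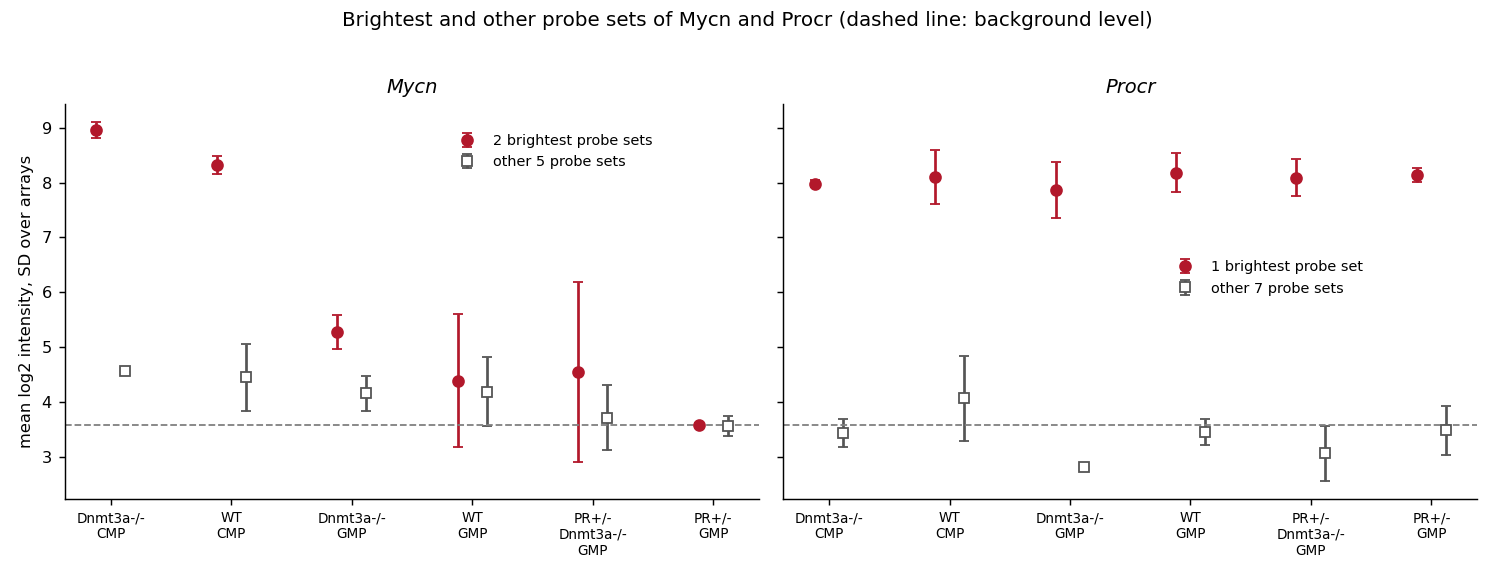
Mean log2 intensity (y axis) with SD over arrays of the brightest probe sets (filled circles) and the other probe sets (open squares) of Mycn and Procr in the 6 groups (x axis), with the background level as a dashed line. The bright Mycn pair stands near 9 in Dnmt3a-/- CMP and lower in GMP, after being chosen for its level in WT CMP, and the bright Procr probe set stands near 8 in every group.

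Few relatives and partners of the 7 genes were called in CMP. In Dnmt3a-/- CMP against WT CMP, none passed of 3 PAR bZIP and Nfil3 genes, 10 genes of the MYC network, 12 partners of Mllt3 in elongation complexes, 5 relatives and corepressors of Mecom, 6 genes of the TIE2 pathway and 9 genes of the protein C pathway. The protein C list had a median change of 0.54, with 3 of 9 at an unadjusted p under 0.05, and a mean level of 6.07 to 6.23 in Dnmt3a-/- CMP, against 5.65 to 5.81 in WT CMP. Of 10 measured genes of the SLAM family 1 rose, where 0.919% of all genes did. It was Slamf7, a receptor of lymphoid and myeloid cells, which had 6.41 in Dnmt3a-/- CMP against 4.70 in WT CMP (1.71 ± 0.31; limma adjusted p = 0.0172). Slamf7 lies near Slamf1 on the chromosome, and it was the only one called in this comparison among 28 genes, the 2 measured neighbours on either side of each of the 7, whose median change was -0.05.

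Averaged over both cell types, Angpt1, the ligand of TIE2, was higher without Dnmt3a (1.07 ± 0.29; limma adjusted p = 0.0492), as was Dok2, an adaptor that TIE2 signals through (0.49 ± 0.13; adjusted p = 0.0438). In the protein C pathway F5, coagulation factor V (1.0 ± 0.24; adjusted p = 0.0328), and the sphingosine phosphate receptor gene S1pr1 (0.79 ± 0.18; adjusted p = 0.0236) were higher. Prdm16, the closest relative of Mecom (0.39 ± 0.09; adjusted p = 0.0251), the elongation factor gene Ell2 (0.79 ± 0.20; adjusted p = 0.0390) and the MYC antagonist Mxd4 (0.55 ± 0.12; adjusted p = 0.0184) were also higher. In the SLAM family Slamf7 was higher (1.26 ± 0.21; adjusted p = 0.00477), and the SLAM adaptor gene Sh2d1b1 (-0.76 ± 0.19; adjusted p = 0.0367) and Ly9 (-0.42 ± 0.11; adjusted p = 0.0447) were lower.

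Between the cell types the relatives split. In Dnmt3a-/- GMP against Dnmt3a-/- CMP, Angpt1 changed by -2.01 ± 0.43, Slamf7 by -2.01 ± 0.31, the thrombin receptor gene F2r by -2.84 ± 0.42 and the MYC family gene Mycl by -1.43 ± 0.19 (limma adjusted p between 0.000428 and 0.00839). In the same comparison the MAX-like factor gene Mlx was higher by 1.15 ± 0.15, and Mxi1, a MYC antagonist, by 0.76 ± 0.21 (limma adjusted p = 0.000288 and 0.0373). In WT GMP against WT CMP, Angpt1 changed by -2.36 ± 0.40 and F2r by -2.50 ± 0.39, and so did Aff3, a scaffold of elongation complexes that hold Mllt3, by -1.53 ± 0.11 (limma adjusted p = 0.00430, 0.00271 and 2.75e-05).

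The wider stem cell programme gave a mixed picture in Dnmt3a-/- CMP. Of 16 measured surface proteins and receptors of stem cells 3 rose and none fell: Itga2b, integrin CD41 (1.38 ± 0.21), Pdzk1ip1 (0.92 ± 0.20) and Itga6, integrin alpha 6 (0.54 ± 0.12; limma adjusted p = 0.00563, 0.0387 and 0.0403). Itga2b is also a megakaryocyte gene. Of 12 quiescence and signature genes 1 rose, the channel gene Trpc6 (1.15 ± 0.19; adjusted p = 0.00990), and of 23 transcription regulators none passed, with a median of 0.16. In Dnmt3a-/- GMP 2 of the 23 regulators rose, Gata2 (1.12 ± 0.24; adjusted p = 0.0390) and Gfi1 (0.98 ± 0.21; adjusted p = 0.0373), and so did Itga2b (1.11 ± 0.19; adjusted p = 0.0150) and the tetraspanin gene Cd9 (1.18 ± 0.22; adjusted p = 0.0226). In a list of 7 genes of basophils and mast cells that includes Gata2, 3 rose in Dnmt3a-/- GMP, with a mean level of 9.04 to 9.72 there against 7.38 to 7.99 in WT GMP, and their part was not tested.

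In PR+/- GMP against WT GMP several of these genes moved while the 7 did not pass. Itga2b was at 8.14 in PR+/- GMP against 5.84 in WT GMP (2.30 ± 0.25; limma adjusted p = 0.000482), Cd9 at 8.46 in PR+/- GMP against 6.42 in WT GMP (2.04 ± 0.25; adjusted p = 0.00114) and Gata2 at 9.54 in PR+/- GMP against 7.28 in WT GMP (2.26 ± 0.30; adjusted p = 0.00169). Meis1, a homeobox partner of stem cell regulators, was lower, at 4.20 in PR+/- GMP against 6.02 in WT GMP (-1.83 ± 0.38; adjusted p = 0.0207). The elongation factor gene Ell2 was higher by 1.60 ± 0.23 and Mxd4 by 1.23 ± 0.16 (limma adjusted p = 0.00311 and 0.00146). The mean level of 7 basophil and mast cell genes, among them Gata2, was 9.59 to 9.64 in PR+/- GMP, against 7.38 to 7.99 in WT GMP, and its part in these changes was not tested.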

How the data were processed

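Total RNA (20 ng per sample) was amplified, labelled and hybridised to Affymetrix mouse exon arrays, per the labels. The authors deposited 1 linear intensity per probe set and array, for 194293 probe sets, and RMA, Partek and mm9 are named, without a role, per the submitters' processing notes. Array medians lay between 53.0 and 56.8, and no further scaling was applied. A gene's level is the mean log2 intensity of the probe sets that carry a gene's symbol alone. Symbols came from the probe annotation and were updated through a RefSeq table of GRCm38.p6, used for names and gene order: 13727 were found, 2039 updated and 37 kept. All 7 genes matched a RefSeq promoter.

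Groups were compared with limma 3.58.1 in R 4.3.3 (lmFit and eBayes, two-sided, Benjamini-Hochberg over 15781 genes, threshold 0.05), in 1 fit of the 13 WT and Dnmt3a-/- arrays, 1 of the 6 PR+/- arrays and 1 of the 13 GMP arrays. The script was tested on simulated data. Tables were handled in Python 3.11.15 with pandas 2.3.3. Where 1 group mean lay below background, the text prints only the distance of the other mean from that level, and the figure shows the fitted value. This distance concerns the means alone and leaves out their standard error. Since no label states that the replicates are different mice, a p-value here reflects the spread among arrays alone, which may be technical, and the number of arrays limits the precision. Both PR+/- groups have arrays numbered 1 and 2, which no label describes as pairs. The 7 genes and all lists were chosen with earlier results of these data known, and the comparisons share control arrays. Besides the 7, up to 3 genes of each list with the smallest adjusted p among those past the threshold were open to naming, and the 3 genes of highest Pearson r with each of the 7. The alternatives tried were other probe set summaries, scales, filters, normalizations, priors, weights, arrays in the fit and covariates.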

Additional observations from a re-analysis of the deposited data

How the results depend on the processing

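Of 1085 values of the 7 genes recomputed under other settings or with 1 array left out, 955 kept their direction and their side of the threshold, 56 lost a call, 14 gained one and 60 changed sign, 0 of them with a call. The cause of these changes was not tested. The number of genes of the 7 that passed was 1 in place of 4 in Dnmt3a-/- CMP against WT CMP when probe sets were summarised by their median and with Y-linked level as covariate. In Dnmt3a-/- GMP against WT GMP it was 0 in place of 1 with the median, with the brighter probe sets, with the arrays of only those groups and with the covariate. For the mean of both it was 5 in place of 3 with array weights and without the arrays of high immediate early genes, and 0 with the covariate. In WT GMP against WT CMP it was 2 in place of 4 with only those groups, and in PR+/- GMP against WT GMP 1 in place of 0 with array weights. Leaving out 1 array at a time gave 1 to 4 in Dnmt3a-/- CMP against WT CMP, 0 to 1 in GMP, 2 to 4 for their mean, 2 to 4 in WT GMP against WT CMP, 5 to 6 in Dnmt3a-/- GMP against Dnmt3a-/- CMP, and 0 in the other comparisons. With a replicate block, 0 of the 7 genes passed in PR+/- Dnmt3a-/- GMP against PR+/- GMP, and 2 pairs are too few to show that the numbers pair the arrays. The genes called over the whole array in Dnmt3a-/- CMP against WT CMP numbered 202, and 95 with the median, 356 with 16 added to each intensity, 1064 with array weights, 100 with only those groups, 63 with the covariate and 450 without the arrays of high immediate early genes. In GMP they numbered 210, and 99, 319, 1734, 75, 48 and 223 in the same order, with 135 for the brighter probe sets. For the mean of both they numbered 907, and 493 with the median, 3248 with array weights, 139 with the covariate and 591 with adjacent Dnmt3a-/- arrays as random pairs. In WT GMP against WT CMP they numbered 678, and 380 with the median, 258 with only those groups and 379 without the arrays of high immediate early genes. They numbered 1590 in Dnmt3a-/- GMP against Dnmt3a-/- CMP, and 997 with the median, 3853 with array weights and 2060 with adjacent Dnmt3a-/- arrays as random pairs. In PR+/- GMP against WT GMP they numbered 484, and 262 with the median, 743 with 16 added, 1045 with array weights, 269 with only those groups and 850 with all 19 arrays in 1 fit.

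The sign changes were all in values without a call. The mean levels of Tek and Slamf1 in GMP lay under background, as did those of Procr in Dnmt3a-/- GMP and of Mycn in PR+/- GMP. Values that rest on these levels give no size. In Dnmt3a-/- CMP against WT CMP, Mycn was -0.12 with the median. In Dnmt3a-/- GMP against WT GMP, Mllt3 was 0.0068 with the median, 0.0065 with the brighter probe sets, 0.073 with array weights, 0.19 with the covariate and 0.13 without the arrays of high immediate early genes, and Slamf1 was 0.35 with the median, 0.085 with quantile normalization and 0.17 without those arrays. With 1 array left out there, Mecom lay between -0.0051 and 0.26, Mllt3 between -0.13 and 0.019, Tek between -0.018 and 0.28, and Slamf1 between -0.23 and 0.19. In WT GMP against WT CMP, Procr was 0.054 with the brighter probe sets. For the Dnmt3a-/- change in GMP minus that in CMP, Mycn was 0.53 with the median, 0.082 with the brighter probe sets, 0.029 with quantile normalization, 0.079 with array weights, 0.0031 with the covariate and 0.31 without the arrays of high immediate early genes, and -0.27 to 0.19 with 1 array left out. Procr was 0.014 with 16 added, 0.0043 with quantile normalization and -0.36 to 0.25 with 1 array left out. In PR+/- Dnmt3a-/- GMP against PR+/- GMP, Mllt3 was 0.26 with the median and with the brighter probe sets, 0.013 with 16 added, 0.23 without the arrays of high immediate early genes and -0.29 to 0.12 with 1 array left out. Tek was -0.019 with array weights, -0.0048 with the covariate, -0.083 without those arrays and -0.028 to 0.080 with 1 array left out, Slamf1 was -0.086 without those arrays, and Mycn was -0.38 with the median and -0.27 without those arrays. In PR+/- GMP against WT GMP, Mecom was -0.11 with the brighter probe sets and -0.093 to 0.18 with 1 array left out, Tek was 0.14 with the median, 0.088 without the arrays of high immediate early genes and -0.21 to 0.082 with 1 array left out, and Procr was -0.29 with the brighter probe sets, -0.020 with 16 added and -0.25 to 0.28 with 1 array left out.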
